A study of Homo sapiens with 2 samples.

Results

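The genes of the proteasome were compared between Ca9-22 cells carrying a DLEU1 lentiviral vector and Ca9-22 cells carrying a control vector. They were chosen by name, as every gene name on the array that starts with PSMA, PSMB, PSMC, PSMD, PSME, PSMF or PSMG followed by a digit, without antisense names (5 left out) and pseudogene names (0 found). The rule gave 49 of the 43317 gene names, with 72 probes, and 47 of the 49 were detected (well above background) on both arrays. The Ca9-22 line comes from an oral squamous cell carcinoma (OSCC). Both groups were infected with a lentivirus and kept in blasticidin for 2 weeks, at a dose that the labels give as 6 mg/ml, whose unit could not be checked here. The vector of one carried full-length cDNA of the long noncoding RNA DLEU1, cloned from another OSCC line, KON, and that of the other was empty. Each group was 1 RNA sample on 1 Agilent array labelled with a single dye, both on 1 slide. No test, p-value or error between cultures could therefore be given, and having so few arrays limits how precise any value is.

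The proteasome is the barrel-shaped protease that degrades ubiquitinated proteins in the cytoplasm and nucleus. Its 20S core is built of rings of α subunits (PSMA genes), which form the gate, and rings of β subunits (PSMB genes), among which PSMB5, PSMB6 and PSMB7 carry the active sites. The 19S particle caps the core, with ATPases (PSMC genes) that unfold the substrate and other subunits (PSMD genes) that bind and remove ubiquitin. Interferon-γ induces PSMB8, PSMB9 and PSMB10, which replace PSMB5, PSMB6 and PSMB7 in newly built cores (the immunoproteasome), and PSME1 and PSME2, which form an alternative cap. Immunoproteasomes supply many of the peptides presented on MHC class I. In many cells the standard subunits are induced together by the transcription factor NFE2L1 when proteasome activity is short.

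Since each value rests on the letters of a probe, the probes of the β5-type pair, PSMB5 and PSMB8, and of the β1-type pair, PSMB6 and PSMB9, are shown first, with hg19 positions from the array files. Capitals mark the longest run that the standard and the inducible probe of a pair share, 5 bases in the first pair and 8 in the second. The genomic span of the PSMB8 and PSMB6 probes is longer than their 60 bases, so these probes cross an intron.
PSMB5 probe A_23_P37191 (chr14:23495485-23495544, minus strand): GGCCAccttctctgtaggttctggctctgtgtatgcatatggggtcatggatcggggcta
PSMB8 probe A_23_P250629 (chr6:32810023-32810490, minus strand): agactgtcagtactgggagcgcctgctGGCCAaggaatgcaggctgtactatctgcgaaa
PSMB6 probe A_23_P15705 (chr17:4701404-4701589, plus strand): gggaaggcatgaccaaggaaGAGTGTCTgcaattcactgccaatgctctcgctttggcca
PSMB9 probe A_23_P111000 (chr6:32823918-32823977, plus strand): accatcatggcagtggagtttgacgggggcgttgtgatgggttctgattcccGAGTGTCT

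The RefSeq promoter windows (GRCh38.p14, 250 bases before to 50 after the start) follow for the 5 interferon-inducible genes, PSMC3 and PSMD7. Among the standard subunits chosen by name, PSMC3 had the lowest difference and PSMD7 was the only one that was higher. Capitals mark matches, on either strand, to GAS (TTCNNNGAA, the interferon-γ activated site), the IRF element (GAAANNGAA), the antioxidant response element (TGACNNNGC, read by NFE2L1 and NFE2L2) and the CCAAT box (CCAAT, read by NF-Y). PSMB8 had another window in the table, without a match, which is not shown.
PSMB8 promoter (chr6:32843998-32844297, minus strand): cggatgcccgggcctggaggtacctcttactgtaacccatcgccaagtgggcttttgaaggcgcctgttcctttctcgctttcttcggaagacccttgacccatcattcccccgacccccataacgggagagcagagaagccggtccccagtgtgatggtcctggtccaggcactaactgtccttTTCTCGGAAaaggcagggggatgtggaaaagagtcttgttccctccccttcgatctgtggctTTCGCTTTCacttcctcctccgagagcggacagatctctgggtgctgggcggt
PSMB9 promoter (chr6:32853942-32854241, plus strand): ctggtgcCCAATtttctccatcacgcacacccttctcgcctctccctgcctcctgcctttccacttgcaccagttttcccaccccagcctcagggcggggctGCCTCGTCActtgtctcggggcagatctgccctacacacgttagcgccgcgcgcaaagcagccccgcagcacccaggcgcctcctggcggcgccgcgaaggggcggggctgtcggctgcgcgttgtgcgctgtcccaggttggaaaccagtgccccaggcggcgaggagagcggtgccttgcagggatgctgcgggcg
PSMB10 promoter (chr16:67936801-67937100, minus strand): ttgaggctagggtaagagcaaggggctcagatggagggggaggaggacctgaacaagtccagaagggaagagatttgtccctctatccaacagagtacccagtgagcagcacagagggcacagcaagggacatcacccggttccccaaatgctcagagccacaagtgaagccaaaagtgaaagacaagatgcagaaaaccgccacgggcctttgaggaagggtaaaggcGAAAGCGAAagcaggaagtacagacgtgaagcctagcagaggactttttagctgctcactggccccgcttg
PSME1 promoter (chr14:24135944-24136243, plus strand): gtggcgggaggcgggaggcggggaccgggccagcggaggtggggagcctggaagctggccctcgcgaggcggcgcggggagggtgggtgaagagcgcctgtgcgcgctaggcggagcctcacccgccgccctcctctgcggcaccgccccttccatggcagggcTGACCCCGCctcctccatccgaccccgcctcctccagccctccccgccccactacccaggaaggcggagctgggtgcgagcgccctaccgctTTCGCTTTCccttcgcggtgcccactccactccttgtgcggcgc
PSME2 promoter (chr14:24146561-24146860, minus strand): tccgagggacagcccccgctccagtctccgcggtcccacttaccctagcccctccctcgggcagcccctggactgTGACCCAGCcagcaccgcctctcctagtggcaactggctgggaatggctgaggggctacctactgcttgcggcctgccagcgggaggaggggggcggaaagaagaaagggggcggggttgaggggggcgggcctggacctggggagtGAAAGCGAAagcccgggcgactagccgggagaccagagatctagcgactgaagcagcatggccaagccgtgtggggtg
PSMC3 promoter (chr11:47426390-47426689, minus strand): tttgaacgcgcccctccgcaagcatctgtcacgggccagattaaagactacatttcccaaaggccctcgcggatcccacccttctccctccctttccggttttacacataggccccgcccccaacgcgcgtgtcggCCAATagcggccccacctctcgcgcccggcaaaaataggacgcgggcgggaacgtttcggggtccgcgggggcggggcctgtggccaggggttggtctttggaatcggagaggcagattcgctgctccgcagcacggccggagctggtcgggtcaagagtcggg
PSMD7 promoter (chr16:74296564-74296863, plus strand): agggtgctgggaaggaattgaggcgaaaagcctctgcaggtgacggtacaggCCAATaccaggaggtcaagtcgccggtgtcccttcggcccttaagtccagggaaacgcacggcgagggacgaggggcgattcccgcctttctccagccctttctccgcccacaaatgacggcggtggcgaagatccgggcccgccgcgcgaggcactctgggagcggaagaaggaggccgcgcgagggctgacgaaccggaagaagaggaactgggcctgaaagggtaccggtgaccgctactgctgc

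Levels are given as log2 of the processed signal minus the 75th percentile of the array, 7.92 for the control vector array and 7.88 for the DLEU1 vector array. Where a gene has a pair of levels, the control vector comes first, and differences are DLEU1 vector minus control vector. The brightest DLEU1 probe (chr13:50679272-50679331) was higher by 2.74, in the direction of the label, and the other probes of the gene, both dim, were higher by 0.85 and 0.54 (1.38 as the mean of all 3). Of the squamous epithelium markers 10 of 10 were detected, and 9 of them were higher with the DLEU1 vector, 7 at least 2-fold, with a median difference of 1.74. Of the markers of other cell types, 2 of 6 fibroblast, 6 of 8 lymphocyte and myeloid and 2 of 4 endothelial genes were detected on both arrays. COL1A1 (0.47 and 4.47 with the control and the DLEU1 vector), VWF (-2.33 and 1.37) and CSF1R (2.07 and 3.93) were at least 2-fold higher with the DLEU1 vector, and LUM was well above background with that vector only. CD14 (-1.96 and -3.56) and CD3D (-2.53 and -3.63) were at least 2-fold lower. The median of the lymphocyte and myeloid list was -0.48, with 2 genes higher and 4 lower. COL1A2, COL3A1, DCN, PECAM1, KDR, CD3E and MS4A1 were not well above background on either array. What part these shifts had in the values below was not tested. In RNA from whole cultures, fewer cells of a kind and less RNA per cell cannot be told apart. In a strip of the array (spot columns 32 to 47, from the first row on), whose borders were set from the map of these differences, 29.8% of the spots lit on the control vector array were at least 2-fold lower with the DLEU1 vector, against 13.4% elsewhere, and the cause of this was not tested. The spread of a difference over the spots of a probe was 0.080 (SD, 282 probes with replicated spots), and that over different probes of a gene was 0.47 (SD, 4674 genes). Both are technical.

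To examine the standard proteasome, the 31 genes chosen by name that encode constitutive subunits of the 20S core and 19S particle were read together. All were detected on both arrays, and 30 of 31 were lower with the DLEU1 vector. The median difference was -0.88, which is 1.84-fold lower, beside -0.07 over all 20246 genes detected on both arrays. At least 1.5-fold lower were 25 of 31 (80.6%), whereas this held for 22% of all genes, and at least 2-fold lower were 8 of 31 (25.8%), against 9.78% of all genes. The count past 2-fold depended on the scaling, with 2 of 31 under quantile normalization and under cyclic loess and 25 of 31 with spike-in probes set equal. No proteasome gene was at least 2-fold higher (9.18% of all genes were), and none at least 1.5-fold higher (18.4%). Of all genes 54.2% were lower with the DLEU1 vector.

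**Figure D1:**
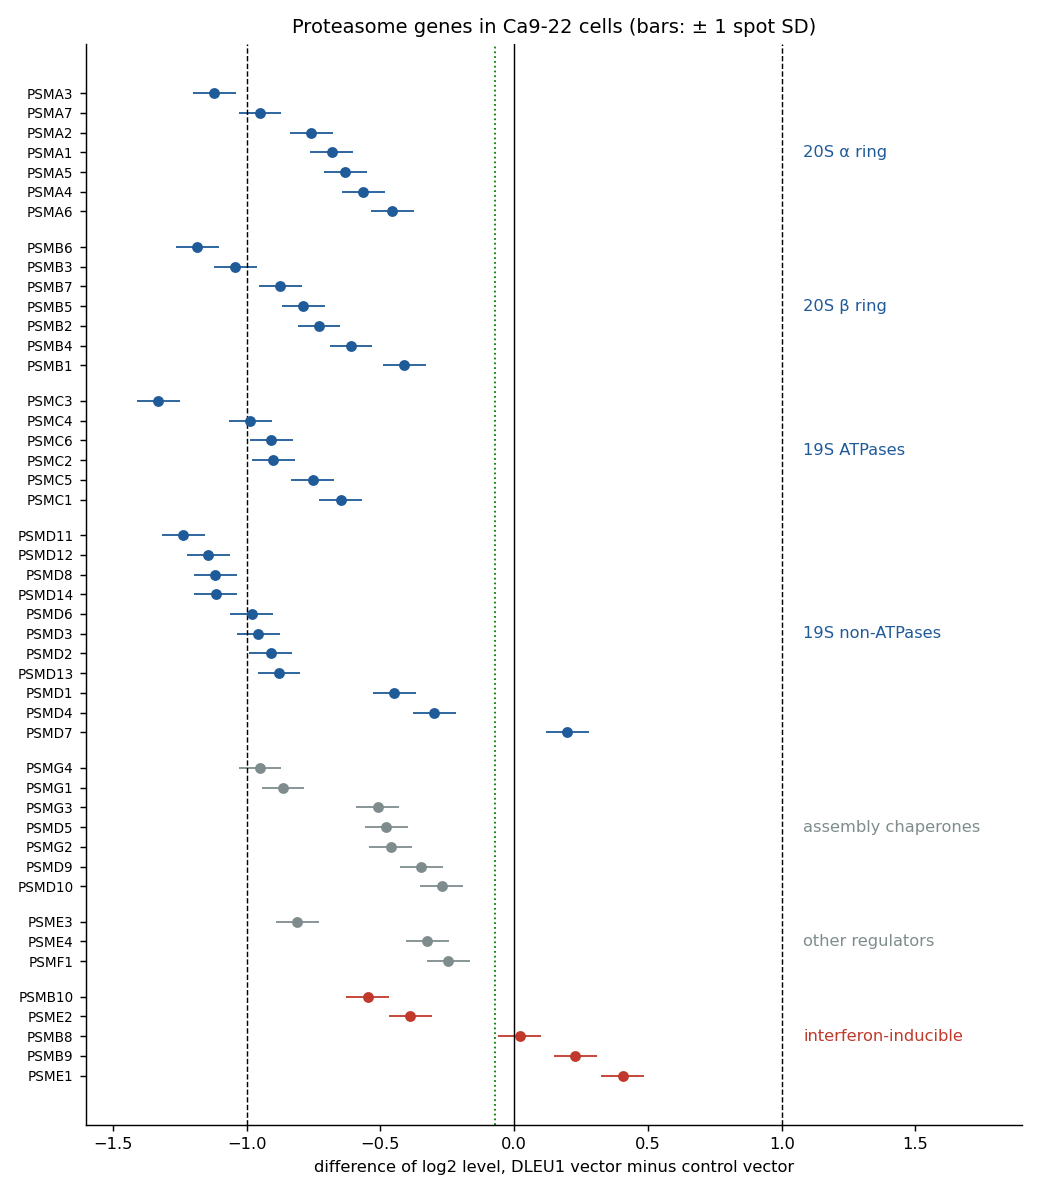
Difference of the log2 level (DLEU1 vector minus control vector, 1 array each) of 46 detected proteasome genes (PSMC3IP, no subunit, is not drawn), grouped by role, with bars of 1 spot SD (0.080), dashed lines at 2-fold and a dotted line at the median of all genes (-0.07). The standard subunits (blue) lie between -1.33 and 0.20 and all but PSMD7 are below 0, and the interferon-inducible genes (red) lie between -0.55 and 0.41. PSMD7 and the inducible genes PSMB8 and PSMB9 changed sign with spike-in scaling, PSMB8 also with median scaling and without scaling.

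The α ring was lower as a whole, with 7 of 7 genes below 0 and a median of -0.68. PSMA3 went from 6.58 with the control vector to 5.46 with the DLEU1 vector (-1.12), the lowest of the ring. Its probe lay in that strip, and the difference was -1.04 once the local median over 100 neighbouring spots was removed. PSMA6 was least shifted, from 7.25 to 6.80 (-0.46). PSMA7 went from 7.32 to 6.37 (-0.95). None of the ring was higher.

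In the β ring 7 of 7 genes were lower, with a median of -0.79. PSMB6, the caspase-like active site, went from 6.93 to 5.75, 2.27-fold lower and the lowest of the ring. PSMB5, the chymotrypsin-like site, went from 6.72 to 5.94 (-0.79). PSMB7, the trypsin-like site, went from 7.95 to 7.08 (-0.87). All 3 catalytic subunits were therefore lower. Among the structural β subunits, PSMB3 was at 5.69 and 4.65 (-1.04), past 2-fold. PSMB1, at 8.41 and 7.99, had the smallest difference of the ring (-0.41).

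The 6 ATPases of the 19S base were lower in 6 of 6 cases, with a median of -0.90. PSMC3 went from 5.32 to 3.99, 2.52-fold lower, the lowest of all 31 subunits. Its difference lay at percentile 5.07 among all genes. PSMC1 was the least shifted ATPase, from 6.91 to 6.27 (-0.65). All 6 passed 1.5-fold.

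The non-ATPase subunits of the 19S particle were the most spread. The median of the 11 was -0.96, with 10 lower and 1 higher. PSMD11, a scaffold subunit of the lid, was at 4.35 and 3.11 with the control and the DLEU1 vector (-1.24). PSMD12, another lid subunit, was at 4.63 and 3.49 (-1.14). PSMD14, the deubiquitinase of the lid, was at 6.84 and 5.72 (-1.12), and its dimmer probe gave -1.45. These lid genes were all past 2-fold, and so was PSMD8, at 6.10 and 4.98 (-1.12). The smallest shift among the lower genes was that of the ubiquitin receptor PSMD4, from 6.85 to 6.55 (-0.30).

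PSMD7, the partner of PSMD14 in the lid, went the other way, from 6.17 to 6.37. Its probe and that of PSMD6 were the only ones among these genes printed at 10 spots. For PSMD7 the spots gave differences from 0.15 to 0.24 (mean 0.20, SD 0.032). For PSMD6 they gave -1.08 to -0.92 (mean -0.98, SD 0.051). The ranges of these lid subunits did not overlap, and each range lay on its own side of 0. They hold only the spread over spots of 1 probe on 1 array per vector. The PSMD7 difference was smaller than the SD over probes of a gene (0.47). With the spike-in probes set equal PSMD7 was at -0.20, below 0 as well, while its distance from PSMD6 was the same by construction. PSMD7 has 4 pseudogenes in RefSeq, and 18 of the 31 constitutive subunits have at least 1, among them PSMC1 with 13. Whether the probes also read them was not tested.

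The interferon-inducible genes were compared with these subunits. With the DLEU1 vector 3 of the 5 were higher and 2 lower, and none passed 1.5-fold in either direction. The median was 0.02. PSMB8 had nearly the same level on both arrays, 3.36 and 3.38 (difference 0.02, below the spot SD), and went below 0 with median scaling, without scaling and with spike-in scaling. PSMB9 was at 4.78 and 5.01 (0.23), and below 0 with spike-in scaling only. PSMB10 was at 5.88 and 5.33 (-0.55) and was the lowest of the 5. In the main setting PSMB9 and PSMB10 thus differed in direction, and PSMB8 had none beyond the spot SD. With spike-in scaling PSMB8 (-0.38), PSMB9 (-0.17) and PSMB10 (-0.95) were all lower.

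PSME1 and PSME2, whose products assemble with each other into the 11S cap, differed in direction. PSME1 went from 1.85 to 2.26 (0.41), the largest positive difference among all proteasome genes detected. PSME2 was at 7.53 and 7.14 (-0.39). Each gene had a single probe, and both differences were smaller than the SD over probes of a gene (0.47). Neither crossed 0 in the 13 alternative settings, but with spike-in scaling PSME1 was at 0.0081, below the spot SD. PSME2 has 6 pseudogenes in RefSeq and PSME1 has 0.

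**Figure D2:**
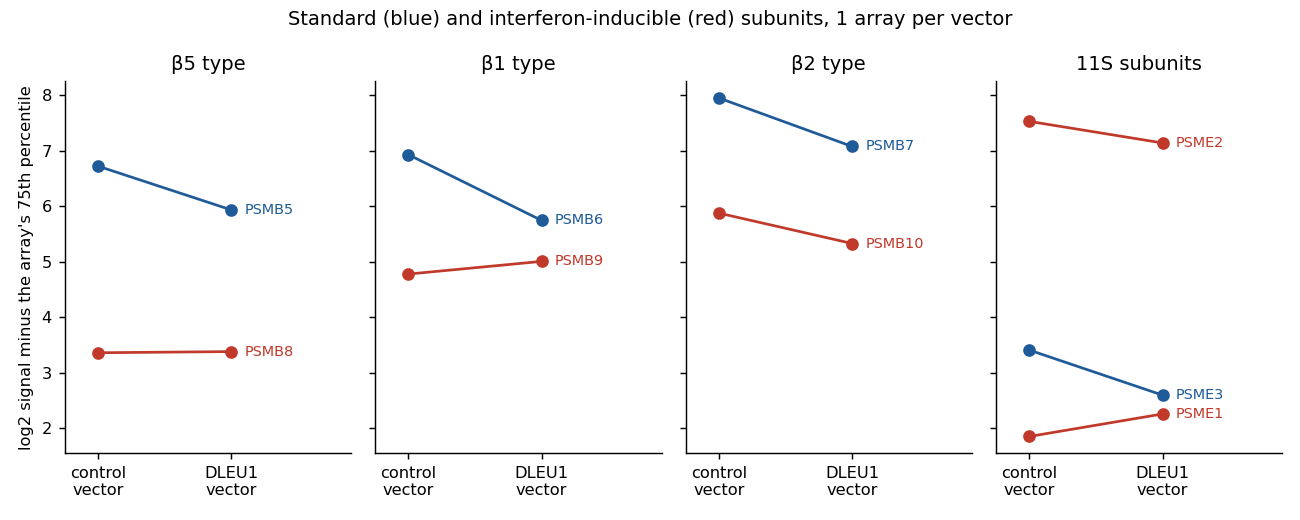
Log2 level (signal minus the 75th percentile of the array) of standard and interferon-inducible subunits on the control vector and DLEU1 vector arrays, 1 point per array, by type of active site and for the 11S subunits. Lines join the same probe on both arrays, and heights of different probes cannot be compared. PSMB5, PSMB6, PSMB7 and PSME3 slope down by 0.79 to 1.19, while PSMB8, PSMB9 and PSME1 slope up by 0.02 to 0.41 and PSMB10 and PSME2 slope down by 0.55 and 0.39 (with spike-in scaling PSMB8 and PSMB9 slope down too).

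Set against their standard counterparts, the inducible subunits shifted upward in relative terms in each of the pairs. The difference of PSMB9 exceeded that of PSMB6 by 1.41, which is a 2.67-fold shift of their ratio. The difference of PSMB8 exceeded that of PSMB5 by 0.81 (1.75-fold). For PSMB10 and PSMB7, both lower, the gap was 0.33 (1.25-fold), within the SD over probes of a gene. The interferon-inducible median exceeded the constitutive median by 0.90 (1.87-fold). Of the 31 constitutive subunits 30 lay below the inducible median and 26 below PSMB10, the lowest inducible gene. PSMD7 was the exception to the first count, and no constitutive subunit lay above PSME1. The inducible median (0.02) lay close to the median of all genes of any brightness (-0.07).

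Differences on these arrays moved with brightness, so the subunits were read within ranges of mean level. The median of all genes went from 0.03 below a level of 0 to -0.14 between 2 and 4, -0.23 between 4 and 6 and -0.28 between 6 and 8. In the ranges from 2 to 8 the constitutive medians were -0.97 (4 genes), -0.91 (11 genes) and -0.64 (14 genes). In each of the 3 ranges the subunits lay below the genes of like brightness. Above a level of 8 there were only 2 subunits, PSMB1 and PSMD2, with a median of -0.66 beside -0.31 for 236 genes. Cyclic loess, which takes off such a trend, left the constitutive median at -0.56 and the gap at 0.76. The inducible genes had mean levels from 2.06 to 7.34 (median 4.89). Between 4 and 6 the median of all genes was -0.23, and with loess the inducible median was 0.20.

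**Figure D3:**
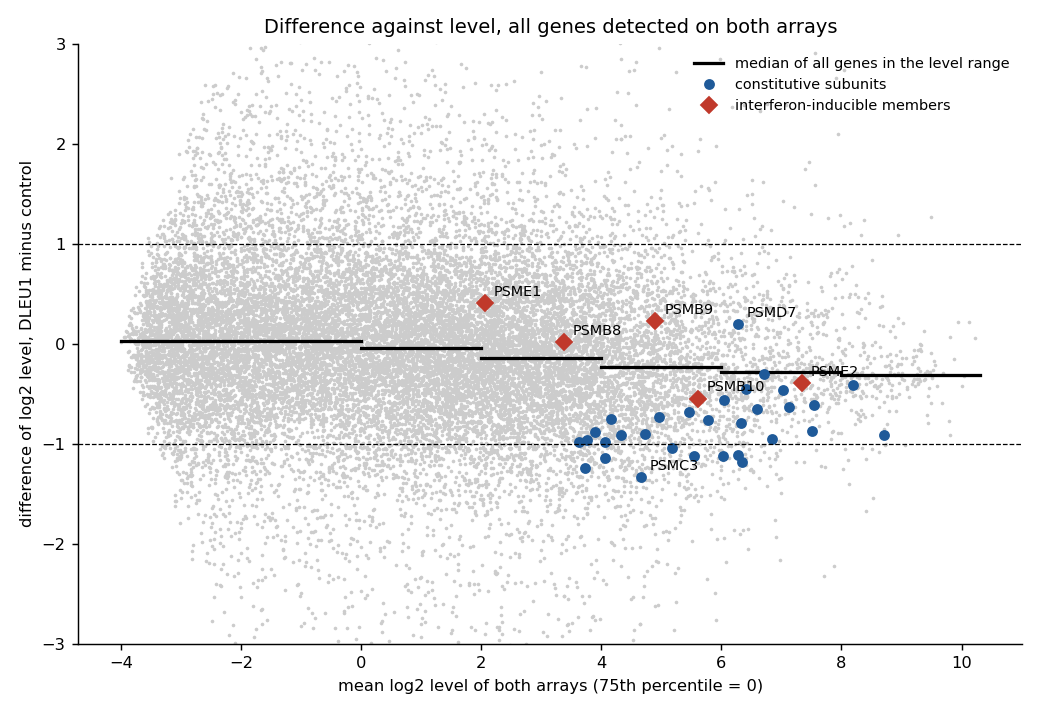
Difference of the log2 level (DLEU1 vector minus control vector) against the mean log2 level of both arrays for 20246 genes (grey, those beyond 3 not drawn), with black bars for the median of all genes in a range of levels. The constitutive subunits (blue) other than PSMD7 lie between -1.33 and -0.30 and below the black bars, PSMD7 lies above them, and the interferon-inducible genes (red) lie both above and below (PSMB8, PSMB9 and PSMD7 below 0 with spike-in scaling).

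The other regulators of the core were lower by their brightest probe. PSME3, a nuclear relative of PSME1, went from 3.41 to 2.60 (-0.81). PSME4, the nuclear activator PA200, was at 2.29 and 1.96 (-0.33), but its dimmer detected probe gave 0.35. PSMF1, an inhibitor of the core, was at 2.80 and 2.55 (-0.25), and 4 of 4 detected probes were lower.

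The assembly chaperones, which build the rings and the 19S base and then leave, were all lower (7 of 7, median -0.48). Those of the core, PSMG1 to PSMG4, differed by -0.86, -0.46, -0.51 and -0.95. Those of the base, PSMD5, PSMD9 and PSMD10, differed by -0.48, -0.35 and -0.27. PSMG4, at 4.87 and 3.92, was the lowest and PSMD10, at 3.90 and 3.63, the highest, and none passed 2-fold. PSMD9 was the gene with the widest disagreement among its probes, -0.35 for the bright one and 0.49 for the dim one.

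The agreement of probes was read for the 13 proteasome genes with several detected probes. In 11 of 13 all probes went the same way. The exceptions were PSMD9 and PSME4, whose sign turned positive when the probes were averaged (0.07 and 0.01). The median SD over the probes of such a gene was 0.19, beside 0.23 over the 4674 genes with several probes. The interferon-inducible genes had a single probe each, so this check was not possible for them.

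**Figure D4:**
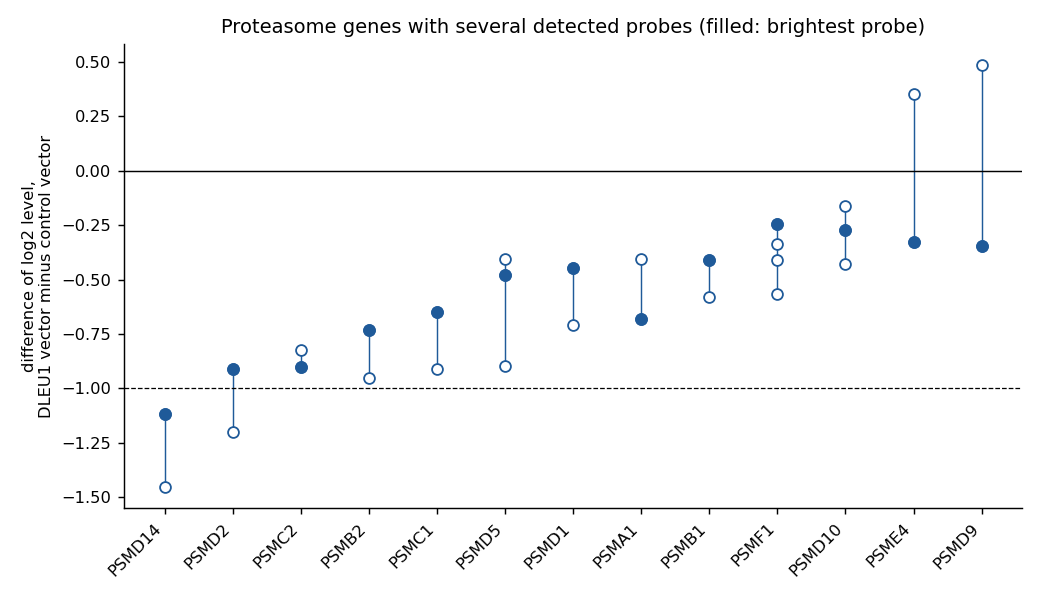
Difference of the log2 level (DLEU1 vector minus control vector) for each detected probe of the 13 proteasome genes with several such probes. The filled point is the brightest probe, which gave the value of the gene, and the dashed line is at 2-fold. The probes of 11 genes lie on the same side of 0, and those of PSME4 and PSMD9 lie on both sides.

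Some names that met the rule are not subunits of the common proteasome. PSMC3IP is named for binding PSMC3 and takes part in meiotic recombination and hormone receptor signalling. It went from 2.59 to -0.53 (-3.12, 8.67-fold lower), by far the lowest of the 47 genes. With it, 9 of the 47 genes were at least 2-fold lower, beside 9.78% of all genes. This count depended on the scaling, from 3 with quantile normalization or cyclic loess to 29 with spike-in scaling. PSMA8, the α subunit of the testis, and PSMB11, the β subunit of the thymus cortex, were not well above background on either array.

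To place the subunits in their pathway, lists of partner genes were read. The 26S cofactors (ubiquitin receptors, deubiquitinases, ubiquitin genes, assembly factors) had 19 of 19 genes detected, 16 of them lower, with a median of -0.47. Over all genes 54.2% were lower and 9.78% at least 2-fold lower. UCHL5, a deubiquitinase of the 19S particle, was the only cofactor past 2-fold, from 2.75 to 1.62 (-1.14). The 3 higher ones were USP14, also a deubiquitinase (-0.29 and 0.50, difference 0.79), UBQLN2 (0.32) and SHFM1 (6.87 and 6.99, 0.12). POMP, the chaperone that matures new cores, was at 1.76 and 1.06 (-0.70). The cofactor median thus lay between that of the constitutive subunits and that of all genes.

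Of the regulators of proteasome genes 9 of 11 were detected on both arrays, with a median of -0.26, 6 lower and 3 higher. NFE2L1 went from 4.80 to 5.23 (0.44), higher while the standard subunits were lower. NGLY1 was the lowest of the list, from 4.34 to 3.70 (-0.64), and MAFG (-0.62) was lower too. DDI2, dim on both arrays (-2.25 and -2.52), was also lower (-0.26). These are RNA levels, and the activity of NFE2L1 was not tested. NFE2L2 was not well above background on either array. STAT3, at -0.98 and 0.16, was the only regulator detected on both arrays past 2-fold (1.14), and was below it with normexp (0.79) and with spike-in scaling (0.74). MAFK, a partner of NFE2L1 and NFE2L2, was well above background with the control vector only. Its level there (1.46) was 45.2-fold above the lowest level of any detected probe with the DLEU1 vector (-4.04), which is no strict bound. The MAFK probe lay in the strip described above.

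The genes of MHC class I peptide loading had 16 of 16 detected, 11 higher and 5 lower, with a median of 0.19. None was past 2-fold, whereas 9.18% of all genes were at least 2-fold higher and 9.78% lower. TAP1, a part of the peptide transporter and a neighbour of PSMB9, was at 5.41 and 5.69 (0.28). TAP2, the other part, was lower (-0.47). ERAP1, which trims peptides, was the highest (0.84). The median of this list, and TAP1, were below 0 with spike-in scaling.

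The factors that induce the immunoproteasome genes had 7 of 8 detected, 5 higher and 2 lower, with a median of 0.20. At least 2-fold higher were 2 of the 7, beside 9.18% of all genes, and 0 were at least 2-fold lower (9.78%). STAT2 went from 4.13 to 6.07 (1.94). IRF1, the factor best known for binding the IRF element of these promoters, was at 0.63 and 1.66 (1.03). IRF1 was below 2-fold with median scaling (0.91), without scaling (0.99), with normexp (0.93) and with spike-in scaling (0.63). NFKB1 was the lowest, at 3.24 and 2.42 (-0.81). The median of this list was below 0 with spike-in scaling.

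The promoter letters shown above were then counted. RefSeq windows were found for 43 of the 49 genes. The IRF element matched in 4 of 5 interferon-inducible genes, in 3 of 26 constitutive ones and in 9.86% of 27305 symbols in the table. In PSMB8, PSMB10, PSME1 and PSME2 the match was the same 9 letters, GAAAGCGAA, read on one strand or the other. These letters, chosen after the matches were seen, were in 0 of 26 constitutive genes and in 0.330% of all symbols. PSMB9 had no match in its window. It lies head to head with TAP1 on chromosome 6, and their windows overlap by 13 bases. The TAP1 window (chr6:32853655-32853954) held overlapping IRF matches, of which the nearest ended 105 bases before the PSMB9 window.

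The other motifs were counted in the same way. GAS matched in 1 of 5 inducible genes (PSMB8), 5 of 26 constitutive ones and 9.38% of all symbols. The antioxidant response element matched in 3 of 5 and 7 of 26, against 16.1% of all symbols. The CCAAT box matched in 1 of 5 and 15 of 26, against 39.7%. It was present both in PSMC3, the lowest subunit, and in PSMD7, the highest. As PSMD7 was the only constitutive subunit above 0, no motif could be set against direction here. A match describes letters in the window and says nothing of binding in these cells.

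The medians were followed over the settings of the processing. The constitutive median stayed below the inducible median and below the median of all genes in each of the 13 alternatives, between -1.28 and -0.56. Median scaling, the detected-probe percentile, no scaling and spike-in scaling shift a whole array evenly, so this order could not change under them. The alternative filters on dim probes left both list medians as they were. The inducible median ranged from -0.38 to 0.20 and changed sign. At most 3 of the 5 inducible genes were above 0 in any of these settings. Spike-in scaling moved all genes down by 0.40, with a median of -0.47, and under it 31 of 31 constitutive subunits were lower.

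**Figure D5:**
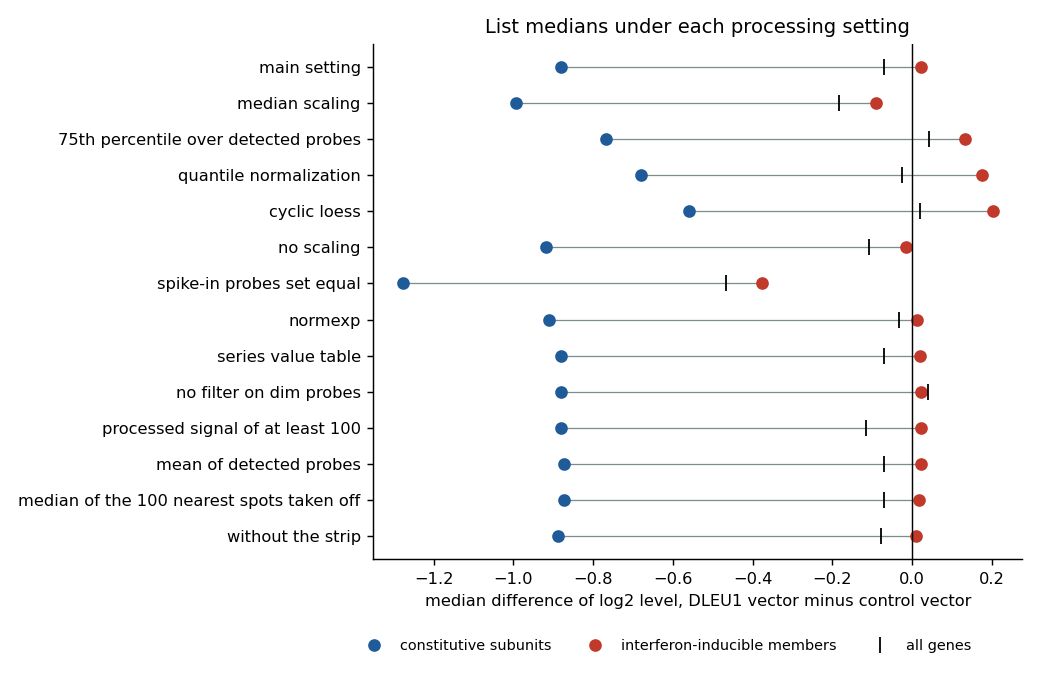
Median difference of the log2 level (DLEU1 vector minus control vector) of the constitutive subunits (blue), the interferon-inducible genes (red) and all genes (black mark) under the main setting and 13 alternatives. The blue points lie between -1.28 and -0.56, left of the black mark in every row. The red points lie between -0.38 and 0.20, on both sides of 0. Scalings that shift a whole array evenly could not change the order of the points.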

How the data were processed

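Total RNA of 2 cultures (100 ng each, labelled with Cy3) was hybridised to SurePrint G3 v3 arrays. Per the file headers, the deposited intensity of a spot is the signal of Feature Extraction 10.7.3.1 after background subtraction and detrending, with surrogate values for dim spots. GeneSpring was used by the authors for their own analysis. The authors' series values held the same linear intensity within 0.497% (column medians 14.3 and 15) and, like the scanner values, were not normalized between arrays. Positions are hg19.

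Control spots and spots marked as outliers (84 and 103) were left out. Processed signals were put on the log2 scale, spots of a probe averaged (58201 probes) and the 75th percentile of the array subtracted. The brightest probe that was detected on both arrays gave the value of a gene. Detected means that most spots were well above background. With 1 array per vector, genes were called at 2-fold and no test was run. Genes were named by role, threshold or extreme position in a role group. The members and lists were chosen with earlier results of these data known. The alternatives were 13 settings of scaling, background, filter, gene value and array position, with normexp (limma 3.58.1) among them, and other thresholds and sublists. The calculation was tested on simulated data. Annotation of exons was not used here. The value of 1 further gene of a partner list is not reported here.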

Additional observations from a re-analysis of the deposited data

How the results depend on the processing

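No paired analysis was possible because each vector had 1 array and the replicate numbers only name them. The constitutive median (-0.88) was -0.99 under median scaling, -0.77 under the detected-probe percentile (the 75th), -0.68 under quantile normalization, -0.56 under cyclic loess, -1.28 under spike-in scaling and -0.74 for the 20S core alone. The interferon-inducible median (0.02) reversed with median scaling (-0.092), without scaling (-0.017) and with spike-in scaling (-0.38), and was 0.13, 0.17 and 0.20 with the detected-probe percentile, quantiles and loess. The gap between them (0.90) was 0.76 with loess and moved by less than the spot SD otherwise. Scalings that shift a whole array evenly could not move this gap. The 9 genes at least 2-fold lower became 17 with median scaling, 3 with quantiles, 3 with loess, 29 with spike-in scaling, 29 at 1.5-fold and 1 at 3-fold, and the 0 at least 2-fold higher stayed 0 throughout. DLEU1 (2.74) was 2.62, 2.85, 2.92, 2.96 and 2.34 with median, detected-percentile, quantile, loess and spike-in scaling, and 1.38 as the mean of its probes. With spike-in scaling the medians of the peptide loading genes (-0.21) and of the inducers (-0.20) reversed. Median scaling and the detected-probe percentile moved the median of all genes by -0.11 and 0.11. The alternatives gave 610 values of single proteasome genes, of which 351 shifted by under 1 spot SD and 259 by more, and 0 of those past 2-fold reversed. Settings that shift a whole array evenly move every gene alike, so these counts depend in part on which settings were chosen. The sign changed in 5 genes below 2-fold (PSMB8, PSMB9, PSMD7, PSMD9, PSME4). The split of all genes past 2-fold was 9.18% higher and 9.78% lower, and 5.01% and 21.4% with spike-in scaling. The cause of these changes was not tested. With 1 array per vector, no value holds the variation between cultures.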

Other observations

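The antisense names left out of the proteasome genes were PSMA3-AS1, PSMB8-AS1, PSMD5-AS1, PSMD6-AS2 and PSMG3-AS1. They had 12 probes detected on both arrays, of which 11 were higher and 1 was lower with the DLEU1 vector (median difference 0.30). Of all 20246 genes detected on both arrays 9278 were higher, and the share over all probes is not given here. The 12 probes belong to only 5 names, so they are not separate observations. The PSMB8-AS1 probe (chr6:32813210-32813269, hg19) went from -0.54 to 0.15 (0.68), while PSMB8 was at 3.36 and 3.38. The largest difference was 1.07, that of a dim PSMG3-AS1 probe (-0.36 and 0.72). The other detected probes of that name gave 0.54 (the brightest), 0.31 and 0.29, and PSMG3 differed by -0.51. Most of these antisense probes were dim.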
